A study of Drosophila melanogaster with 3 samples.

Results

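The 34 genes described here encode the working parts of neurons in Drosophila melanogaster: 10 subunits of the nicotinic acetylcholine receptor, the GABA receptor Rdl, 11 proteins that make or carry transmitters, 6 voltage-gated channels and 6 proteins of synaptic vesicles and their release. They were taken by name from a fixed list, which was chosen with earlier results of these data known. Each of the 34 matched 1 of the 13945 protein-coding genes of the annotation used. The data are lists of chromatin immunoprecipitation peaks for gooseberry-neuro (gsb-n), a Pax transcription factor, from whole embryos of 4 to 14 hours. The line carries Gsb-n with GFP at its C-terminus and the precipitation used an antibody against GFP, and no other genotype or treatment is among the samples. There is 1 group, with biological replicates 1, 2 and 3, so every value below is a description of where the tagged protein was recovered, and the cells in which it sat are unknown because whole embryos were used. Sex was not recorded, the age is taken from the source description because a separate age tag holds an impossible value, and no control measured the same way is analysed here.

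Fast transmission in the fly brain uses acetylcholine, which is made by choline acetyltransferase and opens nicotinic receptors, while the neuromuscular junction uses glutamate and inhibition uses GABA. Voltage-gated sodium and potassium channels carry the action potential, and the vesicle fuses when synaptobrevin, syntaxin and Snap25 zip together under the control of synaptotagmin and Unc-13. These genes belong to the late, terminal program of a neuron. Gsb-n is known from cells of the embryonic central nervous system.

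Each replicate has a relaxed list of 30000 peaks, and so has the pool of all 3. The authors kept 5746 peaks at an irreproducible discovery rate (IDR) threshold, called IDR peaks here, and these are the 5746 highest of the pooled list, with signals of 158 to 3712. Signal is the authors' peak height, on a scale that differs between lists, so peaks are compared between lists by rank, with rank 1 the highest. A peak was given to the protein-coding gene whose transcription start site (TSS) lay nearest to its summit, and to each of several genes that share that TSS. Coordinates are dm6. The read depth is unknown, because the files hold no counts, so a gene with no peak is one at which none was detectable. Each relaxed list holds the same number of peaks, 30000, so its length says nothing about enrichment.

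An IDR peak was assigned to 6 of the 34 genes (17.6%), near the share of all protein-coding genes, 22.6%. Counted over gene bodies with 2 kb around them, the shares were 35.3% and 32.1%, so the number of genes with a peak does not set the 34 apart. These were ChAT and VAChT, which share 1 peak, Gad1, Vmat, Shal and Syx1A, which had 3 peaks, so the genes had 7 IDR peaks in all. No IDR peak lay within 500 bp of the TSS of any of the 34 genes, against 13.7% of all genes with such a peak. By role, 4 of 11 genes for transmitter synthesis and transport had an IDR peak, 1 of 6 channels, 1 of 6 vesicle genes, 0 of 10 nicotinic receptor subunits and neither did Rdl.

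The sequences at 4 of the 7 summits are given because these are the sites on which the statements about Gsb-n at these genes rest. Each is the summit base of the pooled peak with 100 bp on either side, plus strand, read from the RefSeq copy of genome release 6. Capitals mark matches on either strand to TAATTA, the core of many homeodomain sites, or to GAGAG, the core of the GAGA factor site.
Gad1 intron, chr3L:4083540-4083740: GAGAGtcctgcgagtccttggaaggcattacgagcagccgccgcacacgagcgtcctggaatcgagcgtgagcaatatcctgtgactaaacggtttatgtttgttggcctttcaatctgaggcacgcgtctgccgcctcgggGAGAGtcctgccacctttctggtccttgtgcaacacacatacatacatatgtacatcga
Shal intron, chr3L:19575732-19575932: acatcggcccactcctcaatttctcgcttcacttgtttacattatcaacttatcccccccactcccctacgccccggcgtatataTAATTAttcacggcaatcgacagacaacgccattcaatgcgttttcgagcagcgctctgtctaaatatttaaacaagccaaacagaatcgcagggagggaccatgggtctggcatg
Syx1A, distal peak, chr3R:24090244-24090444: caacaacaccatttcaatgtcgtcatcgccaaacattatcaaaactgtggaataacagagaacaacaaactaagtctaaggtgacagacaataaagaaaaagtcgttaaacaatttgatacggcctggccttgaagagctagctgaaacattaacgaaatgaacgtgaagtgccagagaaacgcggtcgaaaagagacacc
ChAT and VAChT intron, chr3R:18707374-18707574: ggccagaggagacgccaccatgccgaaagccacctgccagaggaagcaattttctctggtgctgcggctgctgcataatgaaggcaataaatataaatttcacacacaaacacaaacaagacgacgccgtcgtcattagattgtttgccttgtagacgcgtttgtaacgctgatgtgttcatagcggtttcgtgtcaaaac

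Letters of known homeodomain and paired-domain sites were counted in these windows. TAATTA was in 1 of the 7 windows, at Shal 13 bp before the summit, against 17.3% of all 5746 IDR windows. The homeodomain dimer sites, TAAT followed by ATTA after 2 or after 3 bases, the paired-domain cores GTCACGC or GTCACGG, and GTTCCC or GTTCCG were each in 0 of 7, against 2.58%, 2.91%, 2.66% and 8.82% of all IDR windows. The dimers and TAATTA can overlap each other, and both strands were searched. GAGAG was in 2 of 7 windows, at Gad1 and Vmat, against 23.2%. Over the 59 pooled peaks of these genes, TAATTA was in 5 windows (8.47%), against 15.4% of all 30000 pooled windows, and GAGAG in 17 (28.8%), against 23.8%. The median share of G and C bases was 42.8% in these genes' pooled windows, against 39.8% in all. In the IDR windows it was 40.3%, against 36.3%. The part of base composition in the motif shares was not tested. With 7 windows, the share of all windows gives less than 1 match for each of the dimer and paired-domain sites, so these counts show no scarcity. A missing match says only that these letters are not in this window.

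Of the genes that make and load transmitters, Gad1 carried the highest peak of the whole set. Gad1 encodes glutamic acid decarboxylase, which makes GABA. Its peak (chr3L:4083432-4083847) lay in an intron, 2203 bp downstream of the nearest of 3 annotated TSSs, with a pooled signal of 422, and 20.7% of IDR peaks were higher. In replicates 1, 2 and 3 the signal was 138, 177 and 109, at ranks 1561, 1154 and 946 (1220.3 ± 313, SD, n = 3). All 3 replicates thus placed it well inside their own top 5746, and its summit moved by at most 57 bp. A second pooled peak 200 bp away, rank 7073, overlaps it and was below the IDR list.

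The cholinergic locus had a weaker peak close to the IDR limit. ChAT makes acetylcholine and VAChT loads it into vesicles; the VAChT gene lies within ChAT and both start at the same base. Their shared peak (chr3R:18707266-18707681) lay in the intron that follows the common start, 1973 bp downstream, with a pooled signal of 170, and 89.9% of IDR peaks were higher. The signal was 44.6, 76.0 and 38.4 in replicates 1, 2 and 3, at ranks 8437, 4993 and 6860 (6763 ± 1724, SD, n = 3). It was among the top 5746 in replicate 2 alone. The vesicular monoamine transporter gene Vmat, which loads dopamine, serotonin and octopamine, was similar. Its intronic peak (chr2R:13531888-13532303), 893 bp downstream of a TSS, had a pooled signal of 163 and was at ranks 5781, 6764 and 6539 (6361 ± 515, SD, n = 3), outside the top 5746 of every replicate. Its signal was 58.8, 62 and 39.5 in replicates 1, 2 and 3.

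The other genes of this role had weaker peaks or none. VGlut, the vesicular glutamate transporter, had 4 pooled peaks, the highest with a signal of 123 at rank 8060 in a noncoding exon, and at ranks 10657, 10259 and 7207 in the replicates. Tbh, which turns tyramine into octopamine, had 4 pooled peaks, and 3 of them were within 500 bp of a TSS; its highest had a signal of 118 at rank 8487 and a match in replicates 1 and 3 but not 2. Ddc, the decarboxylase that makes dopamine and serotonin, had its highest pooled peak 325 bp upstream of the TSS at rank 14062. Tdc2, the neuronal tyrosine decarboxylase, had 3 pooled peaks from rank 17762 down, and ple, tyrosine hydroxylase, had 1 at rank 23134. The dopamine transporter gene DAT had no pooled peak and 1 weak peak in each replicate, at ranks 25480, 17654 and 24211. The serotonin transporter gene SerT had no peak in any of the 5 lists.

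**Figure D1:**
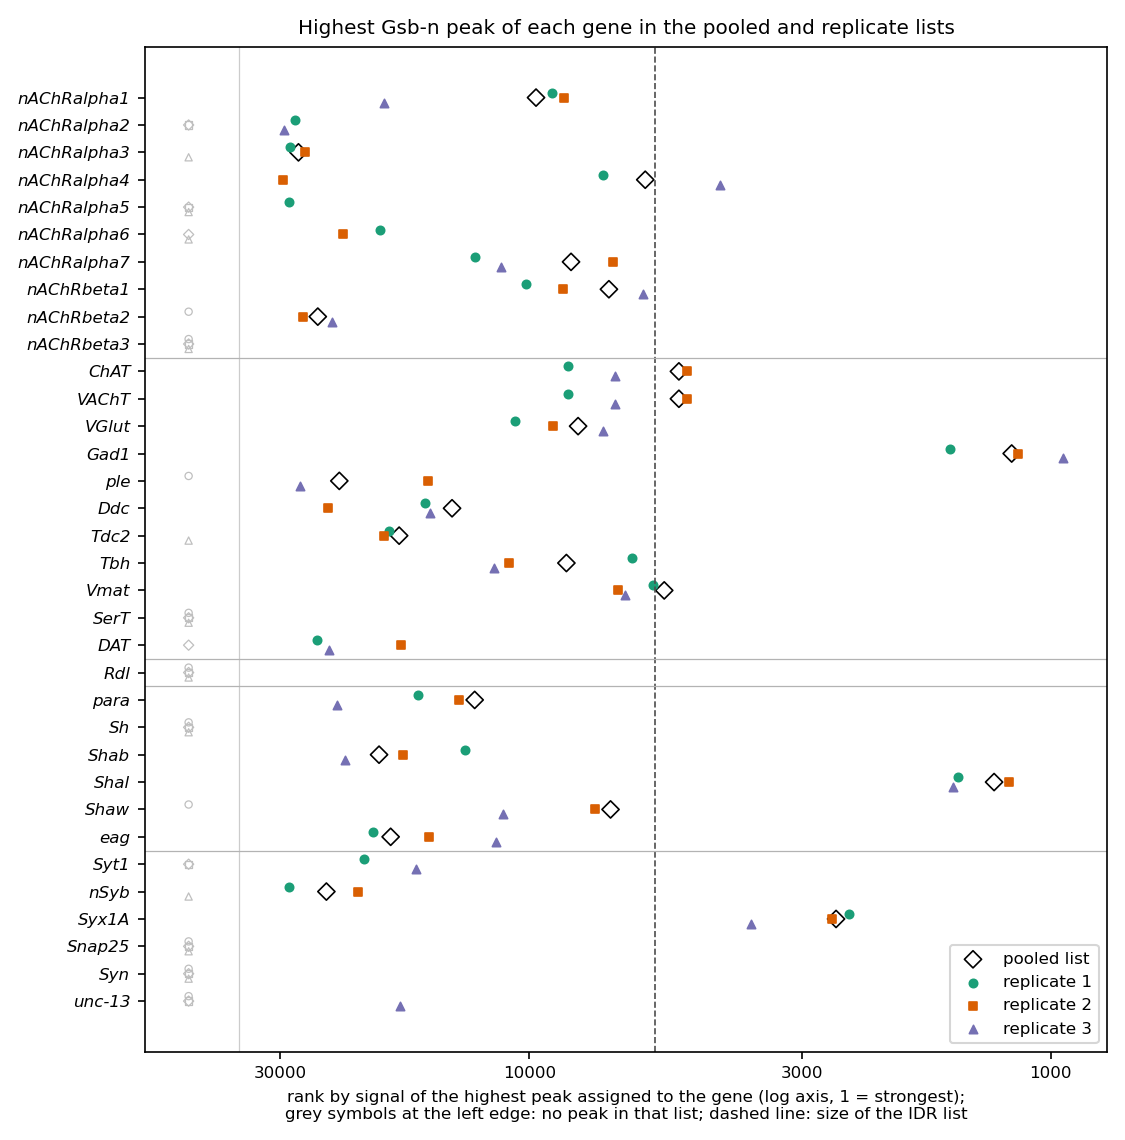
Rank by signal (log axis) of the highest peak assigned to each of the 34 genes, in the pooled list (open diamonds) and in replicates 1, 2 and 3 (filled symbols), with grey symbols at the left edge where a list has no peak and a dashed line at rank 5746. Gad1, Shal and Syx1A lie right of the line in all 3 replicates, and 6 genes have no peak in any list.

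No receptor subunit gene was nearest to an IDR peak, although the bodies of nAChRalpha3 and nAChRalpha5 each held 1 that was nearest to another gene. The 10 nicotinic receptor genes, which encode subunits of pentameric cation channels, had 10 pooled peaks. These were nearest to 6 of the 10 genes, against 45.9% of all genes with a pooled peak. In a replicate's full list 7 ± 1 of the 10 genes (SD, n = 3) had a peak, against 51.1% ± 3.66 of all genes (SD, n = 3). The closest to the limit was nAChRalpha4, with a pooled signal of 154 at rank 5992, in an intron 30171 bp downstream of the nearest TSS. Its highest peak was at ranks 7213, 29688 and 4306 in replicates 1, 2 and 3, and its summit in replicate 2 lay at -748 bp from the pooled one. The subunit gene nAChRbeta1 had a pooled signal of 137 at rank 7034, in an intron, and a matching peak at ranks 10158, 8632 and 6042. For nAChRalpha7 the pooled signal was 120.4 at rank 8315, 613 bp upstream of the TSS, and the ranks were 12687, 6900 and 11327. Of these 3 genes only nAChRalpha4 was among the top 5746 peaks of a replicate, replicate 3. nAChRalpha1, nAChRalpha3 and nAChRbeta2 had pooled peaks from rank 9705 down, and nAChRalpha2, nAChRalpha5 and nAChRalpha6 had peaks in 1 or 2 replicates only. nAChRbeta3, which lies within Ets21C, had none in any list, and neither had Rdl, the GABA-gated chloride channel gene, over a territory of 36.7 kb.

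Among the channel genes only Shal had an IDR peak, close in signal to that of Gad1. Shal encodes the Kv4 potassium channel, which carries a fast inactivating current of cell bodies and dendrites. The peak (chr3L:19575721-19575928) lay in its long intron, 8736 bp downstream of the TSS, with a pooled signal of 406, and 22.3% of IDR peaks were higher. Replicates 1, 2 and 3 gave signals of 141, 173 and 87.1 at ranks 1503, 1200 and 1540 (1414 ± 187, SD, n = 3). The ranks were the closest together of the 7 peaks, and 5 weaker pooled peaks lay near the same gene, from rank 11964 to 28117. Shaw, the Kv3 channel gene, had a pooled signal of 138 at rank 6984, matched at ranks 7486 and 11228 in replicates 2 and 3 and not in replicate 1. The sodium channel gene para had its pooled peak at rank 12725, eag at 18442 and Shab, the Kv2 gene, at 19410. Sh, the Shaker potassium channel gene with 8 annotated TSSs and a territory of 82.1 kb, had no peak assigned in any of the 5 lists.

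Of the genes for vesicles and release, Syx1A stood alone with 12 of the 13 pooled peaks. Syx1A encodes syntaxin, the SNARE of the plasma membrane. Its gene of 4.16 kb lies inside eIF4EHP, a cap-binding repressor of translation whose body covers 45.9 kb, and all 12 pooled summits of Syx1A lay in that body. The highest IDR peak (chr3R:24090136-24090551) was 15419 bp downstream of the Syx1A TSS, past the end of the gene, with a pooled signal of 268. It had signals of 105, 112 and 54.5 in replicates 1, 2 and 3, at ranks 2435, 2632 and 3756 (2941 ± 713, SD, n = 3). The next (chr3R:24098930-24099345), 6625 bp downstream, had a pooled signal of 233, with 83.1, 83.1 and 53.0 in the replicates at ranks 3515, 4349 and 3948 (3937 ± 417, SD, n = 3). The last (chr3R:24106170-24106585) was 615 bp upstream of the TSS, with a pooled signal of 162 at ranks 6111, 7111 and 4764 (5995 ± 1178, SD, n = 3). So 2 of the 3 peaks ranked within the top 5746 of every replicate and the upstream one in replicate 3 alone. The nearest-TSS rule gives these peaks to Syx1A, but they lie in introns of eIF4EHP, to which none was assigned, and CG10694 has its TSS 1013 bp from the upstream one. A weaker pooled peak sat 16 bp from the Syx1A TSS, at rank 8475 and at ranks 10615, 6546 and 14030 in the replicates.

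The remaining vesicle genes had few assigned peaks. nSyb, neuronal synaptobrevin, had 1 pooled peak at rank 24492. Syt1, the calcium sensor of release, had 3 peaks in replicate 1 and 2 in replicate 3, none above rank 16486, and none in replicate 2 or the pooled list. unc-13, which primes vesicles, had peaks in replicate 3 alone, from rank 17707. Snap25 and Syn, the synapsin gene, had no assigned peak in any list, although the Syn body held 4 pooled peaks and the Snap25 body 2 that were nearest to other genes.

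**Figure D2:**
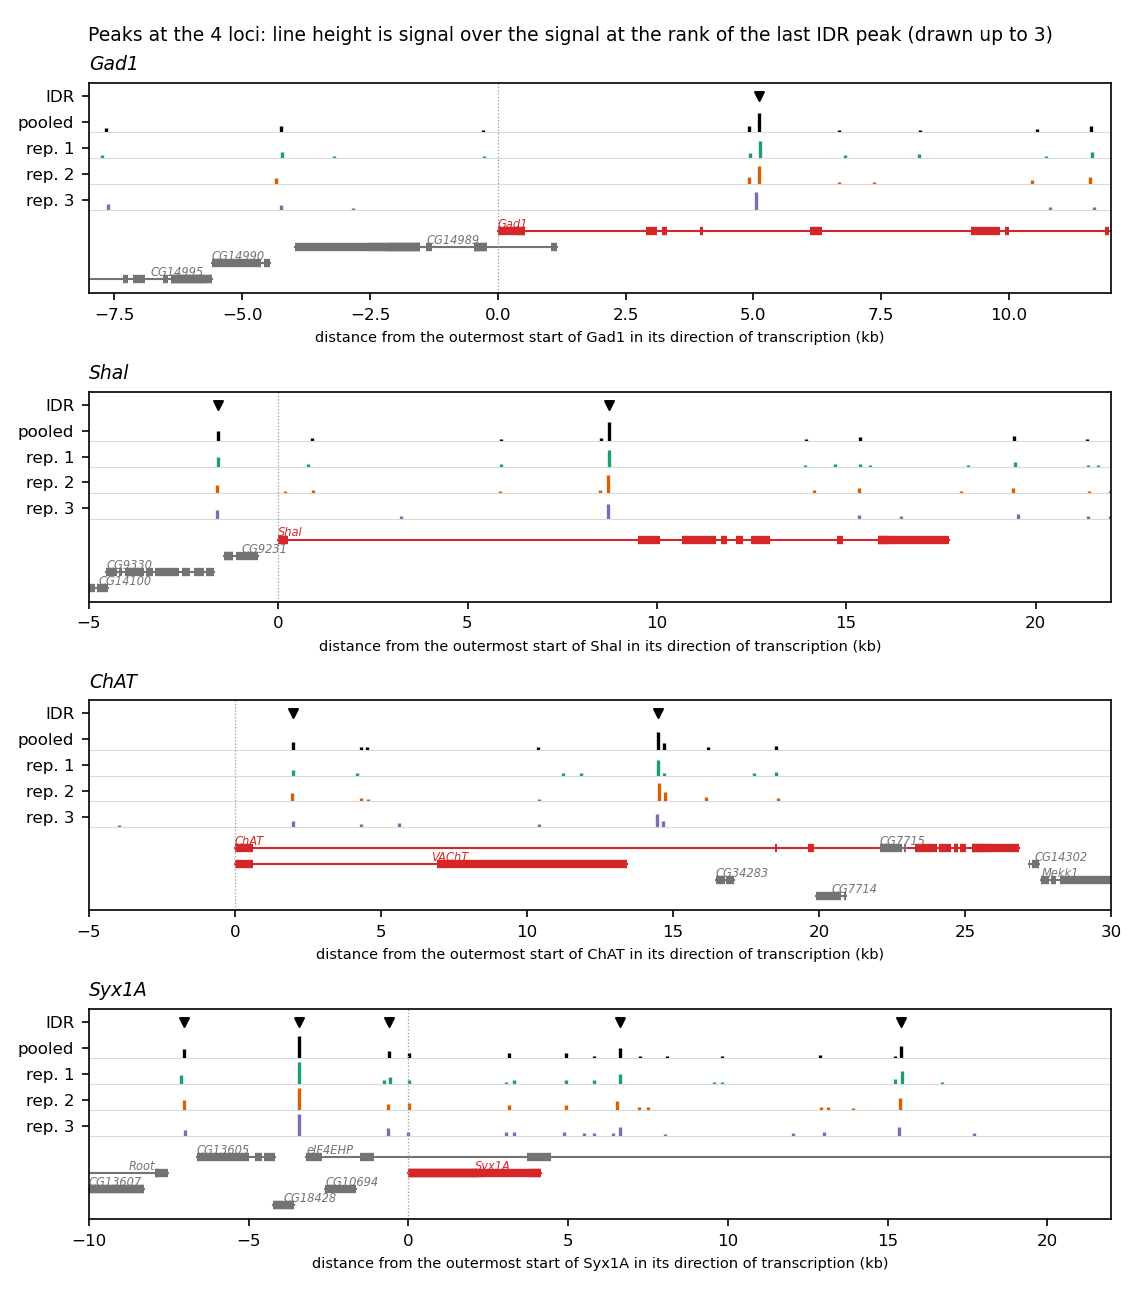
Peaks at the Gad1, Shal, ChAT and Syx1A loci by distance (kb) from the outermost annotated start in the direction of transcription. Black triangles are IDR peaks, vertical lines are peaks of the pooled list and of each replicate with height proportional to signal over the signal at the rank of the last IDR peak, and gene models are below with the described genes in red. The marked peaks of Gad1, Shal and Syx1A recur in all 3 replicates, and the Syx1A peaks lie along eIF4EHP.

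The IDR list was made from these replicates, so recurrence in their full lists is partly built in, and its share over all IDR peaks is not given here. All 7 IDR peaks of these genes had a summit within 100 bp in the full list of each replicate. Ranks still separated them into 4 strong peaks, at Gad1, Shal and the downstream pair of Syx1A, that were in the top 5746 of all 3 replicates, and 3 at ChAT and VAChT, Vmat and the Syx1A upstream site that were in the top 5746 of at most 1 replicate. The pooled signals of these last 3, 170, 163 and 162, lay just above the lowest IDR signal of 158, and nAChRalpha4 at 154 and Shaw at 138 lay just below it. Counted in each replicate's own top 5746 peaks, 3, 5 and 4 of the 34 genes had a peak in replicates 1, 2 and 3 (4 ± 1, SD, n = 3), against 23.3%, 22.7% and 24.5% of all protein-coding genes. As a share of the 34 genes this was 11.8% ± 2.94 (SD, n = 3), against 23.5% ± 0.919 of all genes (SD, n = 3).

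These genes are long and gather much sequence, so peaks were also counted per length. Territory is the stretch of genome closer to a gene's TSS than to any other; its median was 14.3 kb for the 34 genes and 4.33 kb for all genes, and together the 34 genes held 0.876 Mb. There were 8.0 IDR peaks per Mb of their territory, against 42.9 per Mb genome-wide. In the top 5746 peaks the replicates gave 5.71 ± 1.14 per Mb (SD, n = 3), lower than the 42.9 per Mb of the genome in 3 of 3 replicates. In the full lists the genes had 81.1, 73.1 and 70.8 peaks per Mb in replicates 1, 2 and 3, against 224 per Mb genome-wide, 0.335 ± 0.0241 times as many (SD, n = 3). The genes were chosen with earlier results of these data known, so the gap is a description. Of all IDR summits 35.3% lay within 500 bp of a TSS, so peaks were not spread evenly over territories. The part of the longer territories in the gap per Mb was not tested. An exact two-sided sign-flip permutation test over the 3 replicates gave p = 0.25 for the top and for the full lists. This is the smallest p that 3 replicates allow, so the test cannot decide. The gap was larger than the spread between replicates in the top and in the full lists.

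The low density was not shared evenly by role. The genes for transmitter synthesis and transport had 222 ± 32.0 peaks per Mb in the full replicate lists (SD, n = 3), close to the genome's 224, and 27.7 IDR peaks per Mb. The nicotinic receptor genes had 41.1 ± 3.16 (SD, n = 3), the channel genes 74.7 ± 12.6 (SD, n = 3) and the vesicle genes 65.4 ± 16.2 (SD, n = 3), and their IDR densities were 0, 6.06 and 12 per Mb. Differences between roles were not tested. In the 1 Mb around each gene, the median over the 34 genes was 241.5 pooled peaks per Mb, against 224 genome-wide. The lowest were Snap25, with 9.00 per Mb, nAChRalpha4, with 43.0, and unc-13, on chromosome 4, with 125; the part of this in the low density was tested only by leaving them out. Without these 3 genes the other 31 had 12 IDR peaks per Mb, and 106 ± 8.80 peaks per Mb in the full replicate lists (SD, n = 3). Snap25 and unc-13 held 148 and 41.2 kb of the vesicle genes' 0.250 Mb, and nAChRalpha4 held 103 kb of the receptor genes' 0.316 Mb. The densities by role include these stretches and are not given without them. The low vesicle value therefore cannot be read as a trait of the other vesicle genes.

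**Figure D3:**
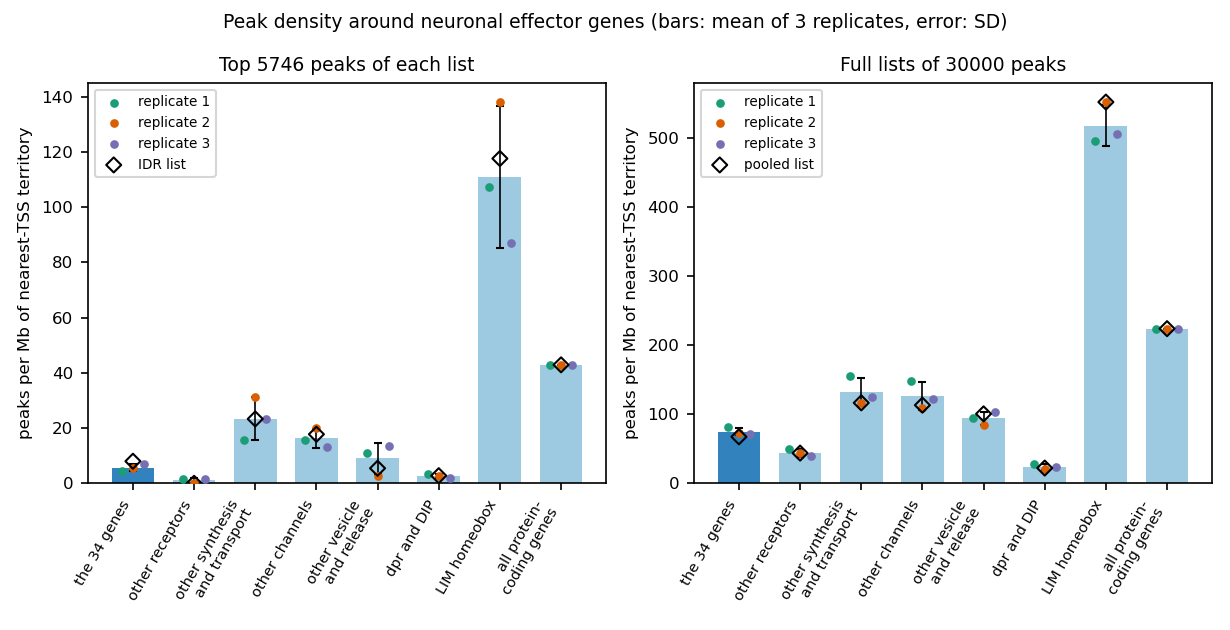
Peaks per Mb of nearest-TSS territory in the top 5746 peaks (left) and full lists (right), for the 34 genes, 6 other gene lists and all protein-coding genes. Bars are means of 3 replicates with SD, coloured points the replicates and diamonds the IDR or pooled list. The 34 genes sit at 5.71 per Mb in the left panel, against 42.9 for all genes.

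Relaxed peaks were common at these genes all the same. In the pooled list 22 of 34 genes (64.7%) were nearest to a peak, against 45.9% of all genes, and in the full replicate lists 24, 24 and 23 were, against 49.6%, 48.3% and 55.2%. Per Mb of territory the density was still below the genome's. Of the 59 pooled peaks of these genes 11.9% were high enough for the IDR list, against 19.2% of all pooled peaks. Of the 52 that were not, 13 (25.0%) had a summit within 100 bp in all 3 replicates, against 21.9% of all such peaks. In all, 17 of the 34 genes had a peak in every replicate, 9 in 2 replicates, 2 in 1 and 6 in none. The last were nAChRbeta3, SerT, Rdl, Sh, Snap25 and Syn. The same shares over all protein-coding genes are not given here, so these counts cannot be read as high or low.

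A smaller share of these genes' peaks than of all peaks lay within 500 bp of a TSS. The genes' median territory was 14.3 kb, against 4.33 kb for all genes, and the part of this in the smaller share was not tested. None of the 7 IDR summits was within 500 bp of a TSS, against 35.3% of all IDR summits, and all 7 were in introns of a member or of eIF4EHP, against 47.2% of all IDR summits in introns of protein-coding genes. In the pooled list 7 of 59 (11.9%) were within 500 bp, against 21.1% of all pooled peaks, at Tbh, Shab, Ddc and Syx1A, so that 4 of 34 genes had such a peak, against 31.7% of all genes. In the full replicate lists the share was 14.8% ± 1.19 for these genes (SD, n = 3) and 22.8% ± 1.67 for all peaks (SD, n = 3), lower in all 3 replicates. The median distance to the TSS was 2569 ± 383 bp and 2800 ± 205 bp in these lists (SD, n = 3 each), which differed by less than the spread.

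**Figure D4:**
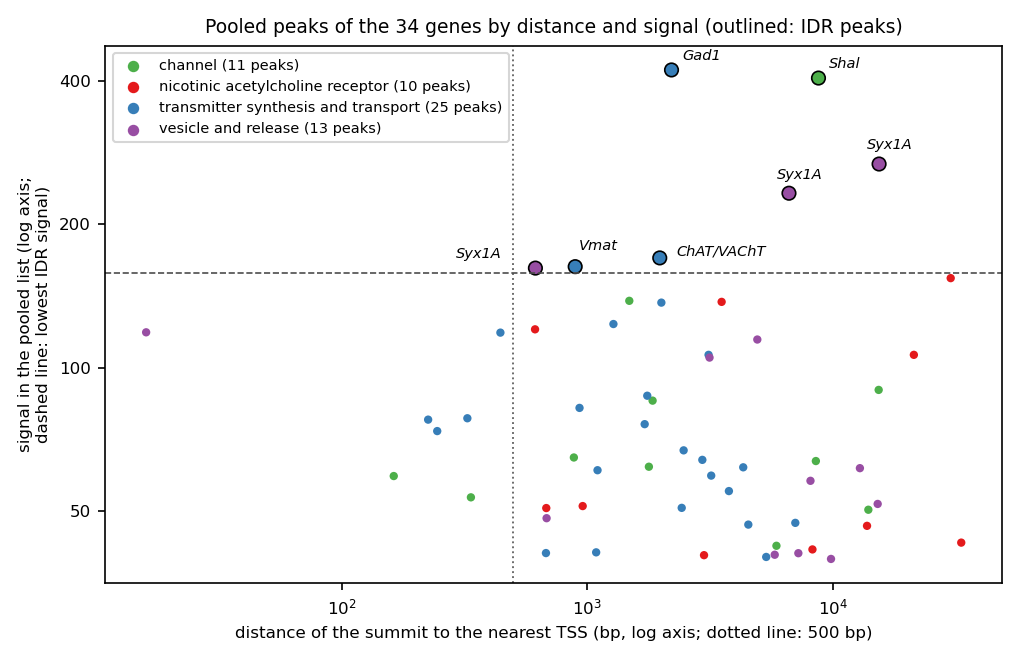
Signal of the 59 pooled peaks assigned to the 34 genes (log axis) against the distance of the summit to the nearest TSS in bp (log axis), coloured by role, with IDR peaks outlined and named. All 7 outlined peaks lie right of the dotted line at 500 bp, and the 7 peaks left of it are below the dashed line at the lowest IDR signal, 158.

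Several of these genes hold strong peaks in their bodies that the nearest-TSS rule gives to a neighbour. An intron of nAChRalpha5 held an IDR peak (chr2L:14047264-14047453) with a signal of 431, beside 422 for the Gad1 peak, 211 bp from the TSS of NimC4, a Nimrod receptor gene, and 7201 bp from that of nAChRalpha5; its ranks were 1486, 1075 and 1402. An intron of ChAT held one (chr3R:18719918-18720064) with a signal of 375, 2599 bp from CG34283 and 14490 bp from the ChAT TSS, at ranks 1888, 1139 and 2023, so the strongest peak within the cholinergic locus is not the one assigned to it. The Syn body held 2, both nearest to Timp, a metalloprotease inhibitor gene nested in it, with signals of 318 and 188. An intron of nAChRalpha3 held 1 with a signal of 251, 21955 bp from CG15343, the nearest gene. When a peak was counted for every gene whose body or 2 kb around it held the summit, 12 of the 34 genes (35.3%) had an IDR peak, against 32.1% of all genes. Those added were nAChRalpha3, nAChRalpha5, nAChRalpha6, eag, nSyb and Syn.

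Other genes of the same functions, in 4 lists, had an IDR peak at 0%, 12.5%, 18.2% and 7.69% of their genes, against 22.6% of all genes; these differences were not tested. Of 36 other transmitter receptor genes (muscarinic, glutamate, GABA-B, dopamine, serotonin, octopamine and histamine receptors) 0 had an IDR peak, and 11 (30.6%) had a pooled peak. Of 16 other genes for transmitter synthesis and transport 2 had IDR peaks: Gs2, glutamine synthetase, had 2 with a top signal of 333, and Pu, which starts the synthesis of the biopterin cofactor, had 1 at 192 bp from its TSS. Of 22 other channel genes 4 had them: Irk1, an inward rectifier, had 4 with a top signal of 729, Ca-beta had 2 with a top signal of 478, and the calcium channel gene Ca-alpha1T and Ih had 1 each. Of 26 other vesicle genes 2 had 1 each, the endophilin gene EndoA and the dynamin gene shi, 156 and 32 bp from their TSSs. Irk1 too had an IDR peak within 500 bp of its TSS. The densities were 0, 23.3, 17.8 and 5.44 IDR peaks per Mb, against 42.9.

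Values for 2 further neuronal lists, both taken with their peaks known, are a description. The 32 dpr and DIP genes encode immunoglobulin proteins that pair neurons with partners. Of these genes 4 had an IDR peak (12.5%, against 22.6% of all genes), and the list had 2.76 IDR peaks per Mb. The 5 LIM homeobox genes tup, Lim1, Awh, ap and Lim3, which specify neuron types, all had IDR peaks, 23 in all, or 118 per Mb. In the top 5746 peaks of the replicates the 34 genes had 5.71 ± 1.14 peaks per Mb and the LIM homeobox genes 111 ± 25.7 (SD, n = 3 each). Since the LIM homeobox genes were taken with their peaks known, the direction of this difference is set by the choice. The same exact sign-flip permutation test over the 3 replicates gave p = 0.25 for the top and for the full lists. That is the smallest p that 3 replicates allow, so the test cannot decide here either.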

How the data were processed

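Peaks were called on dm6 by the authors for each replicate and for the pooled alignments, each against a control common to them, as the deposited notes state; the IDR list was made from these 4 lists. No aligner, peak caller or IDR cutoff can be stated (not given in the sources used here). Peak height is the deposited signal column, whose scale is the authors'. The deposited −log10 q column was not used for any result, and the summit is the peak start plus the summit offset. Signal tracks named in the notes were not analysed here.

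Summits on the 6 chromosome arms were assigned to the nearest TSS of 13945 protein-coding genes (Ensembl release 115); tied genes each received the peak (117 IDR peaks). Replicate summits within 100 bp were called matching. Motifs were searched in windows of the summit and 100 bp on either side. Assignment and matching were tested on simulated data. Of the other genes' names 1 matched no gene. Python 3.11.15, numpy 2.4.6 and pandas 2.3.3 were used. No test across genes was run: there is 1 group, and members and lists were chosen with earlier results of these data known. Named genes are all with an IDR peak, the 5 highest without, up to 3 per other list (all 4 channel genes are named) and neighbours holding peaks in a member's body; further genes were named after their values were seen. The sign-flip p-values show only that these 3 replicates differed in the same direction. They do not measure the spread and cannot fall below 0.25.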

Additional observations from a re-analysis of the deposited data

How the results depend on the processing

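The count of 6 genes and 7 IDR peaks depended on how peaks were assigned and how deep the list was read. With peaks within 1 kb of a TSS it was 2 genes and 2 peaks, with gene bodies plus 2 kb 12 genes and 15 peaks, with the stronger of 2 equal parts of the IDR list 3 genes and 3 peaks, and with the whole pooled list 22 genes and 59 peaks. With peaks in the top lists of all 3 replicates it was 3 genes and 4 peaks. Without any 1 replicate it was also 3 genes and 4 peaks each time (the genes were Gad1, Shal and Syx1A). These sets are smaller by construction. The share of all genes fell too, from 22.6% to 15.8% with the top lists. It was 17.5%, 17.0% and 17.7% without replicates 1, 2 and 3, against 8.82% of the described genes each time. Within 1 kb of a TSS 5.88% of the described genes and 15.6% of all genes had a peak. In the stronger part of the IDR list it was 8.82% and 14.4%. The described genes had the larger share with gene bodies (35.3% against 32.1%) and with the pooled list (64.7% against 45.9%). The mean of 4 genes per replicate was 0.333 in the top 1000 peaks and 23.7 in the full lists, and 3.5 to 4.5 without 1 replicate. Within 1000 bp of a TSS 2 genes had an IDR peak, in place of 0 within 500 bp. With summits matched within 50 bp, 4 of the 7 peaks were found in all 3 replicates; without any 1 replicate, 7 were. The IDR density of 8.0 per Mb became 12 without Snap25, nAChRalpha4 and unc-13, an alternative chosen after seeing the data. The other 16 alternatives for these results, and the 15 for single peaks, stayed within 1.5 times or 1 SD. No paired analysis was possible because there is only 1 group of samples. The unknown read depth limits what can be said of weak peaks.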

Other observations

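The IDR peak in the nAChRalpha3 intron (chrX:8295553-8295968, pooled rank 2855) had a summit within 100 bp in replicate 1 alone, at rank 1266, although replicates 2 and 3 each had 1 peak that overlapped its interval. Of the 2 IDR peaks in the Syn body, the one at pooled rank 4481 matched replicates 2 and 3, at ranks 2907 and 4243, and not replicate 1. The highest nAChRalpha4 peak of replicate 3 was 107 bp from the pooled summit, just past the 100 bp used for matching.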
